A study of Mus musculus with 30 samples.

Results

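Retinoic acid is a vitamin A derivative that directs lineage choice in the embryo and drives mouse embryonic stem (mES) cells out of pluripotency. Cells make it from retinol through retinaldehyde, carry it on small intracellular binding proteins, sense it with nuclear receptors that bind DNA together with RXR partners, and destroy it with enzymes of the CYP26 family. Several genes of the pathway, among them Cyp26a1, Dhrs3 and Rarb, are known targets of its own receptors. The genes described here are 8 members of this pathway, chosen by name: the receptors Rara, Rarb and Rarg, the synthesis enzyme Aldh1a2, the retinaldehyde reductase Dhrs3, the binding proteins Crabp1 and Crabp2, and the retinoic acid hydroxylase Cyp26a1. They are 8 of the 55401 genes in each of the 4 count tables.

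The study asked what happens to transcription when SRCAP, the motor subunit of a remodeler that places the histone variant H2A.Z into nucleosomes, is removed within hours. SYAT cells are CGR8 mES cells, from a homozygous clone, in which both Srcap alleles carry a YPet-AID tag and which express the plant receptor OsTir1 from an EF1a promoter; indole-3-acetic acid (IAA, 500 µM) triggers degradation of the tagged protein. Nuclear RNA was sequenced from 15 groups of 2 libraries, 30 in all, and reads were counted separately over exons and introns. SYAT controls were kept in auxinole, which blocks Tir1, and were compared with SYAT cells after 2, 4, 6 and 8 h of IAA. Auxinole as well as IAA thus differs between SYAT controls and treated cells. The parental CGR8 line, which has no degron, was taken untreated or after 4 h of IAA. SYAT cells with and without 1 h of IAA were sorted in early G1 (EG1) and late G1 (LG1) by DNA content and a mitotic degron reporter. wtSRCAP and cdSRCAP cells are SYAT cells, 1 clone each, that express mCherry-tagged wild-type or catalytically dead SRCAP from a doxycycline-inducible promoter. Both were induced for 24 h and given 0 or 4 h of IAA, so doxycycline is shared by controls and treated cells. Their controls were left in auxinole, so auxinole as well as IAA differs between these groups. All were sorted for high and similar mCherry signal shortly before the RNA was prepared. All cells were in serum and LIF.

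The short stretches just upstream of these genes are shown first because receptors of retinoic acid bind direct repeats of a 6-base half-site. RefSeq windows from 250 bases before to 50 after a transcript start (GRCm38.p6) were at hand for 7 of the 8 genes. They were searched on both strands for 2 half-sites in the same direction, each half-site being AGGTCA, its variant AGTTCA, or the related forms GGGTCA and also GGTTCA, separated by 5 bases. Rarb and Cyp26a1 each held 1 such repeat and the windows of the other genes held none, against 0.0974% of all 32851 windows. Repeats with spacers of 1 and 2 bases, which 0.222% and 0.268% of all windows held, were found in none of the windows of these genes. The repeat of Rarb lies at chr14:16575513-16575529 and ends 36 bases before the transcript start, and the repeat of Cyp26a1, on the strand opposite to the gene, lies at chr19:37697776-37697792, 15 bases before it. The 3 windows below have the repeat in capitals, and Dhrs3 is printed as a window without one.
Rarb, chr14:16575427-16575726, minus strand: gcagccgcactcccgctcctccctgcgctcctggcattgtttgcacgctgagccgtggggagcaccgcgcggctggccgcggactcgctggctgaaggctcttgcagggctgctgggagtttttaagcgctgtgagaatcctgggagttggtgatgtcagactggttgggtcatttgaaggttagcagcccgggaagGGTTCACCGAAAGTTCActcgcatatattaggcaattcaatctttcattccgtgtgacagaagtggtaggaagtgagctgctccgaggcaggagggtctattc
Cyp26a1, chr19:37697558-37697857, plus strand: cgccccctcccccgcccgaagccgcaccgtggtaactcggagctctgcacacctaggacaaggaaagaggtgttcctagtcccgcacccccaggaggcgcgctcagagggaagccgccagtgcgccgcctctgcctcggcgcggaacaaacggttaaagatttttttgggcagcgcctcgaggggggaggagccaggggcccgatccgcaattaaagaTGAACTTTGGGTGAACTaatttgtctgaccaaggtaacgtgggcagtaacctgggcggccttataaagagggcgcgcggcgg
Dhrs3, chr4:144892577-144892876, plus strand: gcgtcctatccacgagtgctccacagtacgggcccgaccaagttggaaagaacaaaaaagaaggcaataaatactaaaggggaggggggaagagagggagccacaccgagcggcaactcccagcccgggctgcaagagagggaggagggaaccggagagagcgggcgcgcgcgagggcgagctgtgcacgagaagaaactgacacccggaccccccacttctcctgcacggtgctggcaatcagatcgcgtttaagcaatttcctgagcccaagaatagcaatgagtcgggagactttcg
By GENCODE (GRCm38), Cyp26a1 spans chr19:37697798-37701536 and Dhrs3 chr4:144892827-144928209 on the plus strand, Rarb chr14:16430839-16819156 and Rarg chr15:102234938-102257517 on the minus strand, and Rara chr11:98927818-98974942 on the plus strand; the Rarb window lies at a start inside the annotated span of the gene. A match of letters is a description of the sequence and not evidence of binding. Although they are the 2 genes with the repeat, Cyp26a1 and Rarb had very different counts, as given below.

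Exon counts summed to between 12236493 and 60214521 per library and were deepest in CGR8, at 45617992 or more. Srcap transcripts were counted in every library, at 39.9 to 60.2 CPM (the count scaled to library size) in the time course, which checks no label because IAA removes the protein and not the RNA. All 8 markers of mES cells passed the filter on low counts in every table and summed to 1510 to 4160 CPM. Summed markers of other cell types reached 24.8 CPM for mesoderm, 25.6 for primitive endoderm, 46.6 for fibroblasts, 173 for trophectoderm and 385 for neural ectoderm, while the 4 markers of two-cell-like cells stayed at 0 to 3.01. Replicate 2 at 6 h of IAA stood apart in the time course: its exon scaling factor was 0.854, against 0.966 to 1.08 in the other 9 libraries. The 6 h values of Cyp26a1, Dhrs3, Rarg and Rara and the 6 h counts from the test are therefore also given without it, and the other values at 6 h include it. Among the wtSRCAP and cdSRCAP libraries, IAA replicate 1 of wtSRCAP had an exon scaling factor of 0.838, against 0.97 to 1.08 in the rest. The wtSRCAP values after IAA include this library, except where it is said to be left out. In these bulk libraries fewer cells expressing a gene and less RNA per cell cannot be told apart.

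Per kilobase of exon, the receptors Rarg and Rara were the highest of the 8 genes, followed by the binding proteins. Over all 30 libraries the median level was 48 CPM per kb for Rarg (21 to 77.2) and 21.2 for Rara (15 to 32.4). Crabp1 had a median of 10.1 CPM per kb (5.8 to 19.1) and Crabp2 of 4.63 (0.74 to 8.55). Aldh1a2 at 0.601 (0.23 to 1.68), Cyp26a1 at 0.525 (0.077 to 3.15) and Dhrs3 at 0.418 (0.024 to 1.25) lay below them. Rarb was lowest at 0.04 CPM per kb (0 to 0.172), which is 0 to 20 counts per library. Within libraries, Rarg was above Rara, Rara above Crabp1 and Crabp2 above Aldh1a2 in 30 of 30, Crabp1 above Crabp2 in 29 and Dhrs3 above Rarb in 28. Aldh1a2 was above Cyp26a1 in 16 of the 30 and Cyp26a1 above Dhrs3 in 17, so these 3 neighbours had no fixed order. Within tables the order of the 3 low genes differed. By median Dhrs3 was above Aldh1a2 and Cyp26a1 in the sorted cells. It was below both in the time course, in CGR8 and in the wtSRCAP and cdSRCAP cells.

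**Figure D1:**
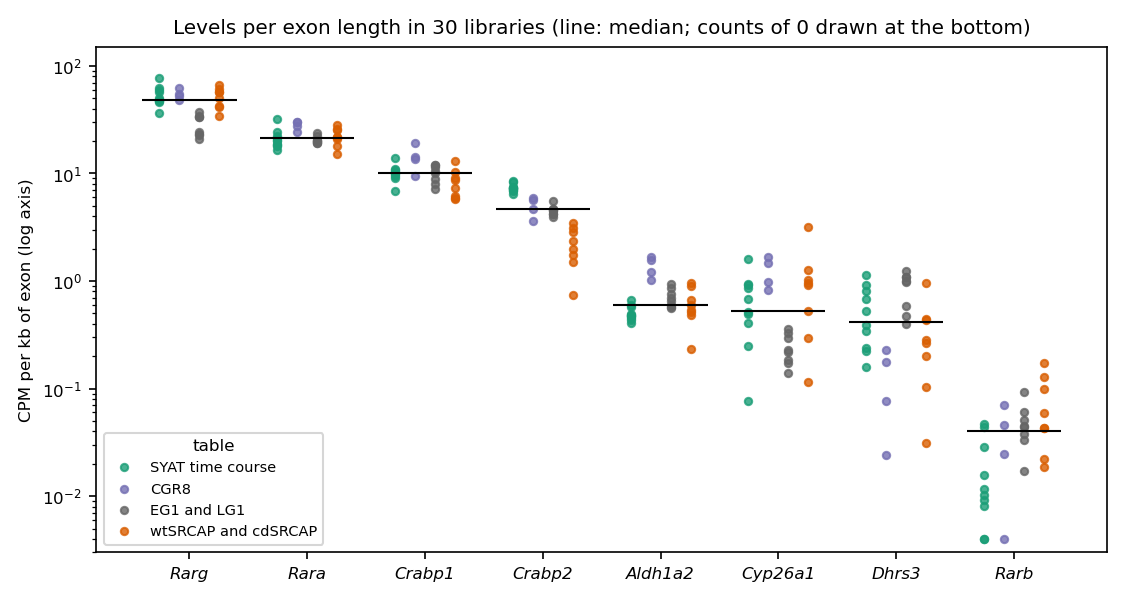
Level of each gene per exon length (CPM per kb of exon, log axis) in the 30 libraries; each point is a library, coloured by count table, black lines are medians and counts of 0 are drawn at the bottom of the axis. Medians run from 48 for Rarg to 0.04 for Rarb.

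In the SYAT time course the breakdown enzyme gene Cyp26a1 was the member farthest from its controls. Its counts were 3 and 12 in the control libraries, 18 and 19 at 2 h of IAA, 25 and 41 at 4 h, 32 and 52 at 6 h, and 21 and 44 at 8 h. All 8 IAA libraries lay above both controls, as they did for 5.97% of the 19205 genes tested, and among the members for Cyp26a1 and Rara. Scaled to library size, Cyp26a1 was at 0.152 and 0.496 CPM in the controls, 0.981 and 0.811 at 2 h, 1.35 and 1.72 at 4 h, 1.86 and 3.19 at 6 h, and 1.03 and 1.81 at 8 h. Group means went from 0.324 ± 0.24 CPM (SD, n = 2) in controls to 2.52 ± 0.94 at 6 h and to 1.42 ± 0.55 at 8 h, where both libraries lay below both of 6 h, a difference that was not tested.

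In edgeR's quasi-likelihood test on exon counts, a gene was called when its adjusted p (Benjamini-Hochberg, over all genes tested) was under 0.05 and its log2 fold change over 0.5 in either direction. Cyp26a1 was not called at any time. Its log2 fold change was 1.40 ± 0.60 (SE) at 2 h with an edgeR adjusted p of 1.00, and 2.18 ± 0.58 at 4 h with an adjusted p of 0.24. At 6 h the log2 fold change was 2.89 ± 0.57 (edgeR adjusted p = 0.068), and at 8 h it was 2.08 ± 0.58 (adjusted p = 0.15). Without replicate 2 at 6 h the value was 2.46 with an edgeR adjusted p of 0.18. The controls hold few reads: without the control with 12 counts the 6 h value was 4.00, and without the one with 3 counts it was 2.34. With no filter on low counts, edgeR called Cyp26a1 at 4 h (adjusted p = 0.031), 6 h (5.9e-05) and 8 h (0.021), among 0.245%, 2.47% and 1.25% of genes called.

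Dhrs3 encodes a reductase that turns retinaldehyde back into retinol and so lowers the supply of retinoic acid. It had 13 and 17 counts in the controls, 21 and 11 at 2 h, 44 and 24 at 4 h, 58 and 25 at 6 h, and 55 and 48 at 8 h. In CPM these were 0.658 and 0.702 in controls, 1.15 and 0.470 at 2 h, 2.37 and 1.01 at 4 h, 3.37 and 1.54 at 6 h, and 2.69 and 1.97 at 8 h. The 2 h pair lay on either side of the controls, and every library from 4 h on was above both. Its log2 fold changes were 0.21 ± 0.63, 1.29 ± 0.60, 1.84 ± 0.59 and 1.76 ± 0.59 in order of time, with edgeR adjusted p of 1.00, 0.57, 0.18 and 0.23. At each time replicate 1 was the higher of the IAA pair for Dhrs3. For Cyp26a1 it was replicate 2 from 4 h on. Leaving out replicate 1 at 4 h brought Dhrs3 to 0.56, and leaving out replicate 2 at 6 h brought it to 2.30.

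Rarg and Rara, the abundant receptors, differed from controls by less. Rarg was at 155.1 and 199.3 CPM in the controls, 198.2 and 256.8 at 2 h, 213.4 and 266.7 at 4 h, 206.3 and 329.1 at 6 h, and 204.9 and 244.7 at 8 h. Both libraries were above both controls from 4 h on, while at 2 h replicate 1 fell between the controls. Rara was at 72.9 and 78.9 CPM in the controls, 93.0 and 107.1 at 2 h, 90.4 and 97.2 at 4 h, 80.8 and 141.2 at 6 h, and 81.5 and 87.7 at 8 h. At 6 h the log2 fold change was 0.59 ± 0.24 for Rarg and 0.55 ± 0.22 for Rara, each with an edgeR adjusted p of 0.26. Replicate 2 at 6 h decided both. Without it Rarg was at 0.22 and Rara at 0.09, with edgeR adjusted p of 0.74 and 0.82, and without replicate 1 instead both were called, at 0.90 with adjusted p of 0.021 and 0.0037.

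The third receptor, Rarb, had 0 to 6 exon counts in the 10 libraries and did not pass the filter on low counts. A count of 0, seen in control replicate 2 and 2 h replicate 1, allows up to 3 counts, or 0.124 and 0.164 CPM. For the binding proteins and the synthesis enzyme, the IAA libraries ranged from below to above the controls. Both libraries were above both controls for Crabp1 at 2 h, as in 18.6% of all genes. The same held for Crabp2 at 6 and 8 h, as in 21.5% and 20.9%. Crabp1 was at 8.20 and 7.27 CPM in controls and between 5.55 and 11.1 in the IAA libraries. Crabp2, which hands retinoic acid to its receptors, was at 9.57 and 9.05 CPM in controls and between 8.51 and 11.3 after IAA. Aldh1a2, which makes retinoic acid from retinaldehyde, was at 1.37 and 1.03 CPM in controls and between 0.921 and 1.51 after IAA, with counts of 15 to 27.

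**Figure D2:**
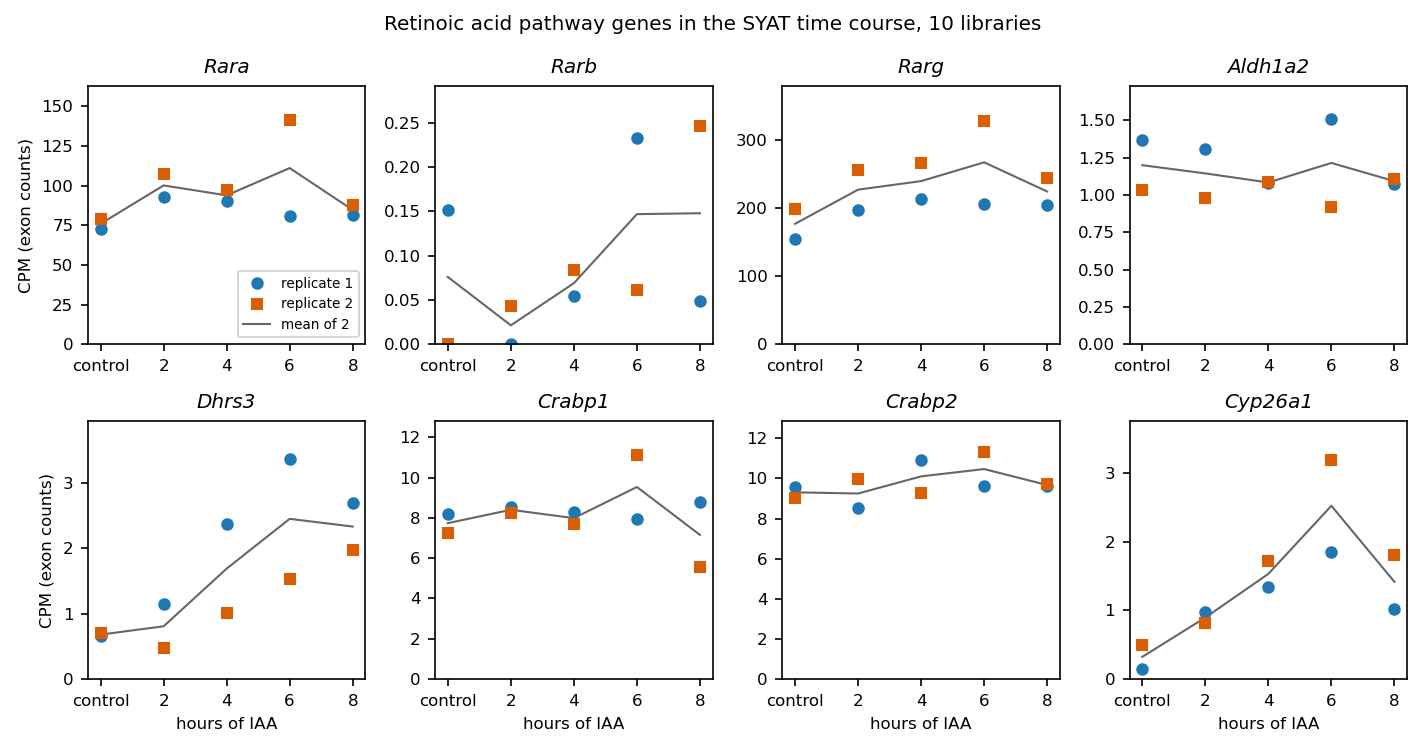
Exon CPM of the 8 genes in the 10 SYAT libraries by hours of IAA; circles are replicate 1, squares replicate 2 and lines join the means of 2. Cyp26a1 starts at 0.152 and 0.496 CPM and reaches 1.86 and 3.19 at 6 h, and Rarg and Rara at 6 h are set apart by replicate 2 (329.1 and 141.2 CPM).

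None of the 7 members tested in the time course was called at 2, 4, 6 or 8 h by edgeR, which called 0%, 0%, 0.0677% and 0.00521% of all genes. DESeq2 called no member either. Of 19205 genes it called 2 higher and 7 lower at 2 h, and 48 and 135 at 4 h. At 6 h it called 250 and 397, and at 8 h 111 and 334. DESeq2 gave no adjusted p for Cyp26a1 at 4 and 6 h or for Dhrs3 at 6 h. At an unadjusted p under 0.05, edgeR had 1 member higher at 2 h, 1 at 4 h, 4 at 6 h and 2 at 8 h, and none lower. The shares of all genes higher at that level were 1.37%, 3.09%, 7.93% and 5.13%, and the shares lower were 2.55%, 6%, 8.21% and 8.44%. The 4 genes at 6 h were Cyp26a1, Dhrs3, Rara and Rarg, and without replicate 2 at 6 h edgeR had 2 members higher at that level, 0 lower and 0 called, beside 12.3% of genes in either direction. The median log2 fold change of the 7 tested members was 0.55 at 6 h, against 0.0096 over all genes (0.22 and 0.016 without replicate 2 at 6 h), and 0.16 at 8 h, against 0.031. Cyp26a1 passed the filter through its IAA libraries, so these medians describe the tested genes and support nothing about the set. Both libraries were above both controls for 3 members at 2 h, 4 at 4 h, 5 at 6 h and 5 at 8 h, beside 18.6%, 21.7%, 21.5% and 20.9% of all genes. No member had both below, as 21%, 24.1%, 22.2% and 24% of all genes had.

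The mesoderm list (Eomes, Kdr, Mesp1, Mixl1 and T), of which 4 of 5 genes passed the filter, summed to 9.87 to 13.4 CPM in the SYAT controls and to 15 to 24.8 in the IAA libraries of all times. No marker of the list was at 0 in any of the 10 libraries, Mesp1 having 1 to 5 counts and Eomes 177 to 344. Eomes held most of the sum, at 7.31 to 9.92 CPM in controls and 10.8 to 18.5 after IAA, and Kdr was at 0.702 to 0.860 and 1.11 to 2.01. T and Mixl1 overlapped between the controls (1.06 to 1.07 and 0.578 to 1.42 CPM) and the IAA libraries (0.921 to 2.91 and 0.534 to 1.51). At 6 h the trophectoderm list, which also holds Eomes and of which 4 of 5 genes passed, was at 95.4 to 103 CPM, against 52.2 to 80 in controls, and the fibroblast list, of which 3 of 4 passed, at 29.9 to 38.1 against 21.4 to 26.3, with Postn at 0 in all 10 libraries. The primitive endoderm list at 6 h was at 17.8 to 17.9 CPM against 13.2 to 16.3 in controls, and neural ectoderm at 223 against 132 to 221. The mES list (1700 to 2720 against 1520 to 1920) and the two-cell-like list (0.307 to 0.464 against 0.354 to 0.496) overlapped. The part of these markers in the values of the members was not tested.

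The genes whose log2 CPM ran closest to that of Cyp26a1 over the 10 time course libraries were Foxp4, a forkhead factor, with a Pearson r of 0.982, Senp6, a SUMO protease, with 0.975, and Esam, an adhesion molecule, with 0.968, out of 19204 genes ranked. Esam went from a mean of 2.21 CPM in controls to 6.94 at 6 h. Foxp4 and Senp6 went from 79.5 and 80 CPM to 108 and 104, smaller in fold than Cyp26a1. Among the members r with Cyp26a1 was 0.814 for Rarg, 0.675 for Rara, 0.573 for Dhrs3, 0.476 for Crabp2, 0.182 for Crabp1 and −0.276 for Aldh1a2. The 10 points share libraries, scaling factors and the outlying 6 h replicate, and these values are a description only.

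CGR8 cells have no degron, so IAA leaves their SRCAP in place, and the comparison addresses what IAA does without degradation. Cyp26a1 was at 1.94 and 1.62 CPM in controls and 3.36 and 2.92 after 4 h of IAA (83 and 87 counts against 182 and 181). The groups did not overlap, and the log2 fold change was 0.82 ± 0.32 (edgeR adjusted p = 0.54). Dhrs3 was at 0.0701 and 0.223 CPM in controls (3 and 12 counts) and 0.665 and 0.517 after IAA (36 and 32 counts), again with no overlap. Its log2 fold change was 1.97 ± 0.92 (edgeR adjusted p = 0.56), and without control replicate 2 it was 3.04. Both genes were higher after IAA in both libraries of the line without a degron, as they were in SYAT at 4 h.

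Rarg was at 223.5 and 204.4 CPM in CGR8 controls and at 267.8 and 231.7 after IAA, with a log2 fold change of 0.22 ± 0.14 (edgeR adjusted p = 0.64). Crabp1 was the member that lay lower, at 15.3 and 11.4 CPM in controls and 10.9 and 7.59 after IAA, a log2 fold change of −0.53 ± 0.24 (edgeR adjusted p = 0.55). Without control replicate 2 edgeR called it, at −0.72 with an adjusted p of 0.024. Rara (130 and 120.1 against 132.9 and 105.9 CPM), Crabp2 (7.46 and 4.82 against 7.79 and 6.12) and Aldh1a2 (3.81 and 2.76 against 3.56 and 2.34) overlapped between groups. Rarb passed the filter here and had 0 and 13 counts against 20 and 8. None of the 8 members was called by edgeR or DESeq2, beside 0.00988% of genes by edgeR. Of 20250 genes DESeq2 called 92 higher and 48 lower. Cyp26a1 was the 1 member with an unadjusted edgeR p under 0.05, higher after IAA, beside 5.04% of genes higher and 4.12% lower at that level. Both IAA libraries were above both controls for 3 members, beside 21.6% of genes, and below for 1 (Crabp1), beside 20.6%. The summed mesoderm markers were 7.32 to 8.65 CPM in CGR8 controls and 9.3 to 10.5 after IAA. Neural ectoderm markers were lower after IAA, at 76.3 to 79.3 and 65.8 to 74.4 CPM. The part of these markers was not tested.

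SYAT and CGR8 were deposited in separate tables and no fit joined them, so the difference between their responses was not tested. Side by side at 4 h, the log2 fold change of Cyp26a1 was 2.18 ± 0.58 in SYAT and 0.82 ± 0.32 in CGR8, and that of Dhrs3 was 1.29 ± 0.60 and 1.97 ± 0.92. The control level of Cyp26a1 was lower in SYAT, at 0.324 ± 0.24 CPM, than in CGR8, at 1.78 ± 0.23, and this comparison across tables has no test either. SYAT controls were kept in auxinole and CGR8 controls were untreated, so these controls differ in more than the line.

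In wtSRCAP cells an inducible wild-type copy remained when IAA degraded the tagged SRCAP, and in cdSRCAP cells a copy without catalysis did; the comparison asks which responses need the catalytic activity. Cyp26a1 in wtSRCAP cells was at 1.81 and 0.227 CPM in controls (28 and 5 counts) and 6.24 and 1.92 after 4 h of IAA (64 and 49 counts). In cdSRCAP cells it was at 1.05 and 0.581 CPM (14 and 15 counts) against 2.04 and 2.51 (39 and 56 counts). IAA libraries lay above controls in both clones, in wtSRCAP by a narrow margin. The log2 fold change was 2.01 ± 0.87 in wtSRCAP (edgeR adjusted p = 0.67) and 1.51 ± 0.88 in cdSRCAP (adjusted p = 0.97). The wtSRCAP value moved with single libraries, being 4.08 without control replicate 1, 1.13 without control replicate 2 and 0.98 without IAA replicate 1. These fits ignored the pairing by replicate number in this table, and leaving out 1 library breaks a pair. Within each replicate number Cyp26a1 was higher after IAA than in control, in both clones. With the replicate number as a block, Cyp26a1 reached an unadjusted edgeR p under 0.05 in both clones and was called in neither. The response in cdSRCAP minus that in wtSRCAP was −0.50 ± 1.23 (edgeR adjusted p = 1.00), an error wide enough to hide a large difference in either direction.

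Dhrs3 had 9 and 2 counts in wtSRCAP controls and 8 and 21 after IAA, or 0.583 and 0.0908 CPM against 0.780 and 0.822. In cdSRCAP it had 4 and 33 counts against 25 and 62, or 0.301 and 1.28 CPM against 1.31 and 2.78. The log2 fold changes were 1.32 ± 0.99 and 1.30 ± 0.85 (edgeR adjusted p = 0.81 and 1.00). Single libraries moved them between 0.46, without control replicate 2, and 3.05, without control replicate 1, in wtSRCAP, and between 0.67, without IAA replicate 2, and 2.76, without control replicate 2, in cdSRCAP. These fits ignored the pairing too. Within each replicate number Dhrs3 was higher after IAA than in control, in both clones. With the block it did not reach an unadjusted edgeR p under 0.05 in either clone.

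Rarg had tighter replicates. It was at 146.2 and 175.5 CPM in wtSRCAP controls and 244.1 and 241.9 after IAA, and at 179.4 and 212.8 CPM against 258.1 and 286.2 in cdSRCAP. The log2 fold change in wtSRCAP was 0.59 ± 0.20 with an edgeR adjusted p of 0.64. With the replicate number as a block, which pairs libraries in this table, it was 0.60 ± 0.14 with an edgeR adjusted p of 0.016. Rarg thus rose in wtSRCAP cells under the paired fit, in which 3.2% of genes were called. That fit includes IAA replicate 1 of wtSRCAP, the library with the scaling factor of 0.838. In cdSRCAP it was 0.47 ± 0.20 (edgeR adjusted p = 0.87), and 0.48 ± 0.14 with the block (adjusted p = 0.072). The paired difference between the 2 responses was −0.13 ± 0.19 (edgeR adjusted p = 1.00).

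Rara was at 66.6 and 78.9 CPM in wtSRCAP controls and 94.8 and 91.9 after IAA, and at 110 and 94.9 against 122.9 and 112.4 in cdSRCAP. Its log2 fold changes were 0.36 ± 0.20 and 0.20 ± 0.20 (edgeR adjusted p = 0.74 and 1.00). Both cdSRCAP controls were above both wtSRCAP controls, by 0.49 ± 0.20 on the log2 scale (edgeR adjusted p = 1.00), as in 15.7% of genes. Crabp1 was at 4.99 and 7.22 CPM against 10.5 and 8.29 in wtSRCAP and at 4.67 and 4.72 against 6.96 and 5.92 in cdSRCAP, with a log2 fold change of 0.62 ± 0.32 in the former (edgeR adjusted p = 0.72). Crabp2 in wtSRCAP was at 0.971 and 3.77 CPM against 4.10 and 4.62, a log2 fold change of 0.86 ± 0.57 (edgeR adjusted p = 0.78). Rarb in wtSRCAP was at 0.518 and 0.227 CPM in controls and 0.0976 and 0.117 after IAA, a log2 fold change of −1.67 ± 1.19 (edgeR adjusted p = 0.79), on 1 to 13 counts in the table.

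Without the block, edgeR called no member after IAA in wtSRCAP or cdSRCAP or between the clones, and DESeq2 called none. The shares of genes called by edgeR were 0.00523% in wtSRCAP and 0% in cdSRCAP. Between clones they were 0% in controls and 0.00523% after IAA. Of 19111 genes DESeq2 called 14 higher and 7 lower in wtSRCAP, and 3 and 19 in cdSRCAP. Between the clones it called 19 and 4 in controls, and 5 and 3 after IAA. At an unadjusted edgeR p under 0.05, 2 members (Cyp26a1 and Rarg) were higher in wtSRCAP, 1 (Rarg) in cdSRCAP and 1 (Rara) in cdSRCAP controls against wtSRCAP controls, beside 2.93%, 1.65% and 2.5% of genes. None was lower, beside 4.48%, 3.99% and 1.32% of genes. Between the clones after IAA no member reached that level in either direction, beside 2.84% of genes higher and 2.19% lower in cdSRCAP. With the replicate block, 3 members were higher at that level in wtSRCAP (Cyp26a1, Rarg and Rara), 2 in cdSRCAP (Cyp26a1 and Rarg), 2 between clones in controls (Rara and Rarg) and 1 after IAA (Rara), beside 17.7%, 14.7%, 10.1% and 14.1% of genes in either direction. Both IAA libraries were above both controls for 6 members in wtSRCAP and 5 in cdSRCAP, beside 14.9% and 18.7% of genes, and below for 1 (Rarb) and 0, beside 19.5% and 19%. Between the clones, both cdSRCAP libraries were above both of wtSRCAP for 2 members in controls (Rara and Rarg) and 4 after IAA, beside 15.7% and 19.1% of genes, and below for 1 and 2, beside 14.1% and 14.6%. Mesoderm markers summed to 4.54 to 6.93 CPM in wtSRCAP controls and 9.74 to 15.3 after IAA, and to 7.15 to 7.86 and 15.4 to 17.3 in cdSRCAP. Fibroblast markers, 3 of 4 passing the filter and Postn at 0 throughout, summed to 4.99 to 5.31 CPM in wtSRCAP controls and 12 to 12.1 after IAA, and to 6.48 to 7.32 and 8.34 to 8.68 in cdSRCAP. The mES list was at 2450 to 2750 CPM in wtSRCAP controls and 3080 to 3270 after IAA. In cdSRCAP the trophectoderm list was at 53.4 to 61 and 65.3 to 77.6. The two-cell-like list was at 0.503 to 0.753 CPM in cdSRCAP controls and 0.269 to 0.314 after IAA, values near the floor. Of its 4 genes 0 passed the filter, and 1 was at 0 in each control library and 2 in each IAA library. Lists not named here for a clone overlapped between its groups. The part of these lists was not tested.

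Across the 4 comparisons at 4 h of IAA, Cyp26a1 and Dhrs3 were the members with a log2 fold change over 0.5 each time, a pattern noticed after the values were seen. Of 17683 genes tested in all 4, at any level of counts, 89 (0.503%) had it. Cyp26a1 in SYAT and Dhrs3 in CGR8 had few control counts and passed the filter through their IAA libraries. The pattern is therefore a description only and supports nothing about the set. The SYAT and CGR8 lines share no libraries, whereas the wtSRCAP and cdSRCAP groups were fitted together.

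**Figure D3:**
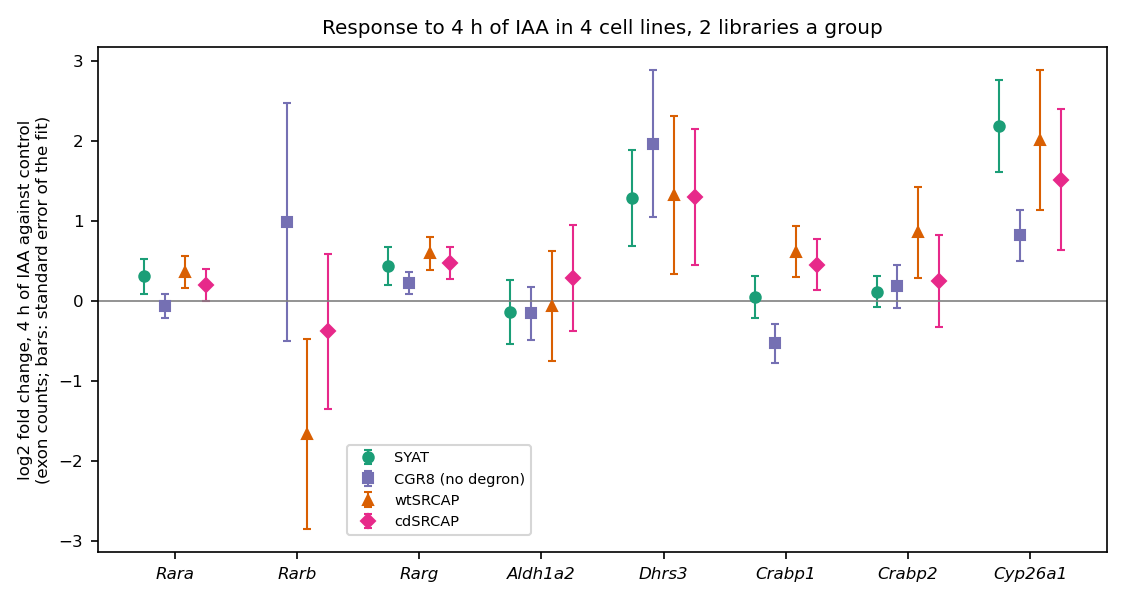
Log2 fold change of each gene after 4 h of IAA against control in SYAT (circles), CGR8 (squares), wtSRCAP (triangles) and cdSRCAP (diamonds) from exon counts; bars are standard errors and 2 libraries form each group. Cyp26a1 and Dhrs3 lie above 0.5 in all 4, and Rarb has no SYAT value.

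After 1 h of IAA in sorted cells no member was called. Cyp26a1 in EG1 was at 0.278 and 0.434 CPM in controls and 0.707 and 0.586 after IAA, with both treated libraries above both controls. In LG1 it was at 0.342 and 0.655 CPM against 0.452 and 0.367, with overlap. With 7 to 15 counts per library, the log2 fold changes were 0.86 ± 0.52 in EG1 and −0.28 ± 0.54 in LG1 (edgeR adjusted p = 1.00 for both). The LG1 response minus the EG1 response was −1.14 ± 0.75 (edgeR adjusted p = 1.00). Dhrs3 was at 2.92 and 1.38 CPM against 3.16 and 1.17 in EG1 and at 3.18 and 1.73 against 3.67 and 2.89 in LG1, a log2 fold change of 0.42 ± 0.54 in LG1 (edgeR adjusted p = 1.00). For both phases and treatments replicate 1 was the higher of the pair for Dhrs3.

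Rarg in EG1 was at 90 and 141.7 CPM against 102.8 and 142.0, and in LG1 at 99.6 and 145 against 96.8 and 160.1, with replicate 2 above replicate 1 in all 4 groups. Rara in LG1 was at 84.3 and 87.3 CPM against 96.6 and 103.6 after IAA, and in EG1 at 83.7 and 86.5 against 90.3 and 86.8. EdgeR and DESeq2 called 0 of the 7 members tested in either phase or between the phases, beside 0% of genes in all 4 edgeR comparisons. DESeq2 called 0 genes in either phase, and between the phases 1 in controls and 2 after IAA. Without the replicate block no member had an unadjusted edgeR p under 0.05 in either direction. The shares of genes higher and lower at that level were 0.19% and 1.03% in EG1, 0.285% and 0.733% in LG1, 0.709% and 0.733% between phases in controls, and 1.42% and 0.89% after IAA. Under the looser rule used for sorted cells (unadjusted p under 0.05 and log2 fold change over 0.25) 0 members were called without the block, beside 1.22% of genes in EG1, 1.02% in LG1, and 1.44% and 2.31% between the phases in controls and after IAA. With the block, which pairs libraries in this table too, 2 members met the looser rule as higher in LG1 than in EG1 after IAA, beside 9.7% of genes in either direction. They were Crabp1, at 0.42 ± 0.16 on the log2 scale (edgeR adjusted p = 0.19), and Dhrs3, at 0.67 ± 0.27 (adjusted p = 0.23). Rara reached an unadjusted p under 0.05 in the same comparison, at 0.18 ± 0.066 (edgeR adjusted p = 0.20), and after 1 h of IAA in LG1, at 0.22 ± 0.066 (adjusted p = 0.48), beside 14.8% and 6.75% of genes. Both IAA libraries were above both controls for 4 members in EG1 and 2 in LG1, beside 7.98% and 7.83% of genes, and below for 0 and 0, beside 13.4% and 10.4%. Between the phases, both LG1 libraries were above both EG1 libraries for 0 tested members in controls and 2 after IAA (Rara and Crabp1), beside 10.7% and 11.9% of genes, and below for 0 and 2 (Cyp26a1 and Aldh1a2), beside 11.7% and 11.8%.

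**Figure D4:**
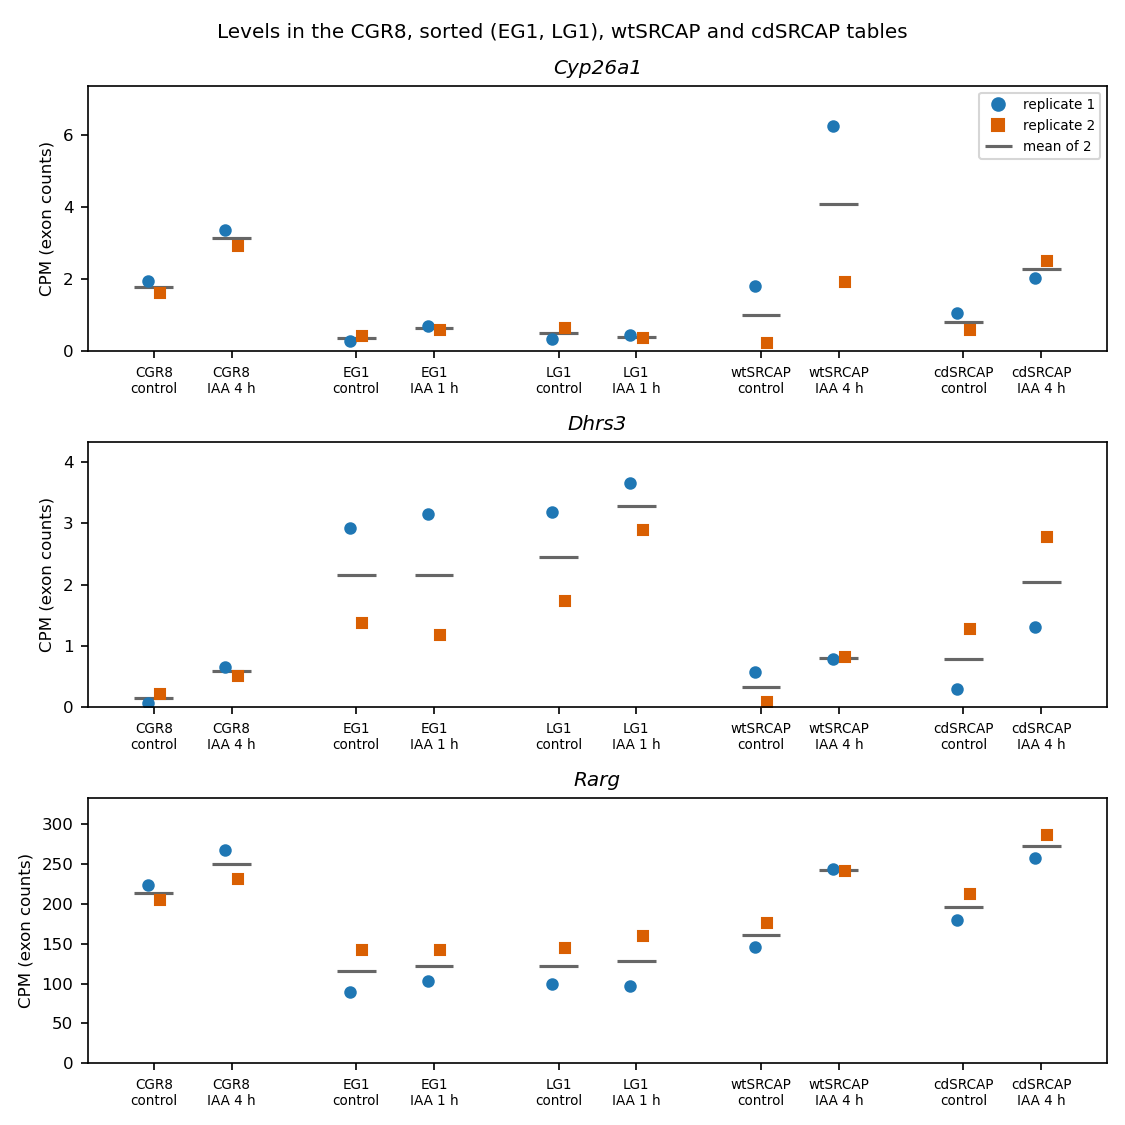
Exon CPM of Cyp26a1, Dhrs3 and Rarg in the CGR8, sorted, wtSRCAP and cdSRCAP libraries; circles are replicate 1, squares replicate 2 and bars the mean of 2. Treated libraries lie above their controls for all 3 genes in CGR8, wtSRCAP and cdSRCAP, and the groups of LG1 overlap for all 3.

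Intron counts, a nearer readout of ongoing transcription, could be set beside the exons only in part. In the time course and in EG1 the intron column held at least 90% of the exon count for 74.6 to 76.7% of genes with 100 or more exon counts, against 4.65 to 21.6% in the other libraries. In those columns Cyp26a1 and Dhrs3 repeated their exon pattern, with log2 fold changes at 6 h of 2.85 ± 0.53 and 1.47 ± 0.63 (edgeR adjusted p = 0.11 and 0.34), and the columns are no independent measure. In the tables with separate introns Cyp26a1 had 0 to 8 intron counts per library. Dhrs3 introns had 81 and 62 counts in LG1 controls and 131 and 116 after 1 h of IAA, a log2 fold change of 0.85 ± 0.32 (edgeR adjusted p = 1.00). In cdSRCAP they had 36 and 35 counts against 84 and 102, or 1.31 ± 0.38 (edgeR adjusted p = 0.22), in wtSRCAP 19 and 33 against 23 and 46, or 0.74 ± 0.40 (adjusted p = 0.48), and in CGR8 18 and 24 against 28 and 56, or 0.61 ± 0.66 (adjusted p = 0.94). The Dhrs3 intron estimate was above 0 in all 4 of these comparisons, and none passed the test.

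A wider list of 43 genes of retinoid handling, receptors and cofactors, and response genes was measured beside the members. Of these, 30 passed the filter in the time course, 36 in CGR8, 36 in the sorted cells and 29 in the wtSRCAP and cdSRCAP table, and edgeR called 0 in every comparison without the block. With the block it called 2 higher and 1 lower at 6 h in SYAT, beside 4.29% of all genes. At 8 h these were 3 higher and 1 lower, beside 3.3%. The SYAT log2 fold changes and adjusted p of the genes named below are from the fit without the block. At an unadjusted edgeR p under 0.05, 1 was higher and 1 lower at 2 h, 3 and 0 at 4 h, 6 and 0 at 6 h, and 3 and 0 at 8 h. The 6 h share is to be read beside the 7.93% of genes higher and 8.21% lower at that level. The median log2 fold change of the list at 6 h was 0.23, against 0.0096 over all genes. Without replicate 2 at 6 h, 34 genes of the list passed the filter, of which 3 were higher and 0 lower, with a median of 0.24 against 0.016.

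Meis1, a homeobox gene of embryonic patterning, was at 2.28 and 2.89 CPM in SYAT controls, 3.16 and 3.42 at 2 h, 4.90 and 4.86 at 4 h, 5.69 and 4.54 at 6 h, and 6.90 and 6.37 at 8 h. Every IAA library was above both controls, and the log2 fold change was 0.98 ± 0.26 at 6 h (edgeR adjusted p = 0.12) and 1.35 ± 0.25 at 8 h (adjusted p = 0.072). In CGR8, Meis1 had a log2 fold change of 0.74 ± 0.33 (edgeR adjusted p = 0.54). Its relative Meis2 had 0.83 ± 0.35 at 6 h and 1.10 ± 0.35 at 8 h (edgeR adjusted p = 0.28 and 0.20). Nrip1, a corepressor of nuclear receptors, was at 0.70 ± 0.26 at 6 h and 0.79 ± 0.26 at 8 h (edgeR adjusted p = 0.23 and 0.22). Cyp26c1, a relative of Cyp26a1, had 0 to 13 counts and a log2 fold change of 1.06 ± 1.03 at 6 h (edgeR adjusted p = 0.63). Meis1 lay higher in both cdSRCAP libraries than in both wtSRCAP libraries before and after IAA, as in 15.7% and 19.1% of genes. Between the clones it was called only after IAA, and only with the block. It was at 2.14 and 1.36 CPM in wtSRCAP controls and 5.57 and 3.80 in cdSRCAP controls, a log2 difference of 1.42 ± 0.40 (edgeR adjusted p = 1.00), and of 1.42 ± 0.37 with the block (adjusted p = 0.065). After IAA the log2 difference was 1.66 ± 0.40 (edgeR adjusted p = 0.95), and 1.65 ± 0.36 with the block (adjusted p = 0.020). The response in cdSRCAP minus that in wtSRCAP was 0.24 ± 0.56 (edgeR adjusted p = 1.00).

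Rdh11, a retinal reductase, lay lower after IAA in wtSRCAP and cdSRCAP. It was at 33.7 and 35.2 CPM in wtSRCAP controls and 16.6 and 18.6 after IAA, and at 22.8 and 27.5 CPM against 11.9 and 11.8 in cdSRCAP. No groups overlapped. The log2 fold changes were −0.96 ± 0.22 and −1.09 ± 0.22 (edgeR adjusted p = 0.60 and 0.72), and with the block −0.97 ± 0.19 and −1.08 ± 0.19 (adjusted p = 0.0061 and 0.0046), so Rdh11 fell in both clones under the paired fit. Without the block, Rdh11 had −0.41 ± 0.15 in CGR8 (edgeR adjusted p = 0.54) and −0.62 ± 0.36 in SYAT at 8 h (adjusted p = 0.49). In SYAT it was at 43.0 and 30.9 CPM in controls and 30.5 and 17.8 at 8 h, lower within each replicate number. With the block, 1 gene of the wider list was called lower in SYAT at 8 h. In sorted cells after 1 h of IAA its groups overlapped, with log2 fold changes of 0.097 ± 0.18 in EG1 and 0.050 ± 0.18 in LG1 (edgeR adjusted p = 1.00 for both). Fabp5, a lipid carrier that also binds retinoic acid, was lower in cdSRCAP than in wtSRCAP controls by −0.89 ± 0.28 on the log2 scale (edgeR adjusted p = 1.00), and with the block by −0.90 ± 0.20 (adjusted p = 0.020).

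**Figure D5:**
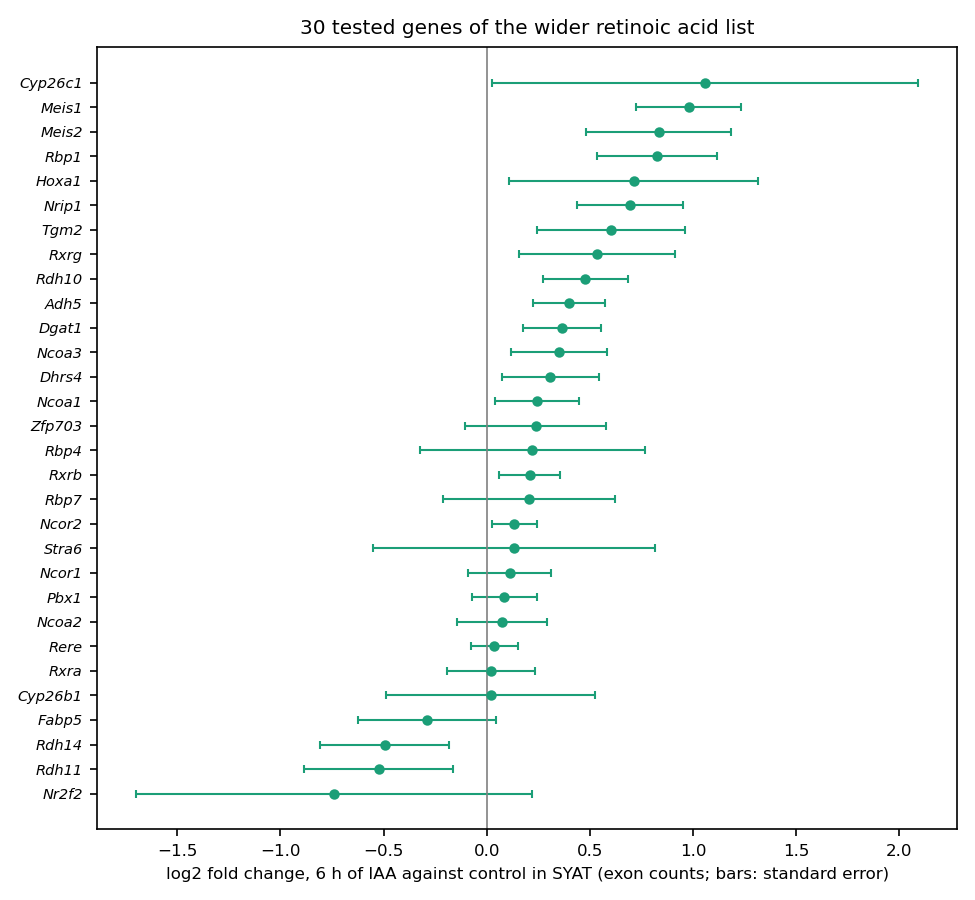
Log2 fold change at 6 h of IAA against control in SYAT for the 30 tested genes of the wider list, from exon counts; points are estimates of the fit and bars standard errors. Estimates run from Nr2f2, Rdh11 and Rdh14 below 0 to Meis2, Meis1 and Cyp26c1 at 0.83, 0.98 and 1.06.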

How the data were processed

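Nuclear RNA-seq libraries (NEBNext Ultra II Directional, paired-end) were aligned by the authors to mm10 with STAR and counted with featureCounts on GENCODE vM25 exons and introns (gene body minus exons). The authors deposited whole-number counts per gene, with an exon and an intron column per library and no normalization, in 4 tables. The strand setting of the counting is not given in the sources used here. Rarb overlaps Top2b, and Aldh1a2 a predicted gene, on the opposite strand, so shared reads there are uncertain. The authors also deposited fold changes and p-values of their own comparisons, which were not used. Symbols came from GENCODE vM21 (GRCm38), where 54349 of 55401 identifiers matched with the version, all 8 members among them, and promoter windows from RefSeq (GRCm38.p6). The members and gene lists were chosen with earlier results of these data known.

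Here each table was fitted with edgeR 4.0.16 in R 4.3.3 (TMM scaling, filterByExpr with a minimum count of 10 and minimum total of 15, quasi-likelihood F-test, all libraries of the table, Benjamini-Hochberg over all tested genes). Contrasts stayed within a table. CPM were scaled to the TMM library size, and CPM per kb used the exon union length. Libraries are biological duplicates, 2 samples a group. The p-values rest on a spread between replicates estimated over all groups of the table, with information shared across genes. Alternatives were DESeq2 1.42.0, its size factors, no filter, only the groups compared, a replicate block, intron columns and leaving out each library. The edgeR fits with and without the block and the DESeq2 fit were tried on simulated exon counts for the first comparison of each table. The other steps were not simulated. Same-numbered libraries deviated together in the sorted table (lowest r between groups 0.48) and in the wtSRCAP and cdSRCAP table (lowest r 0.38), so the numbers pair samples there. In the time course r ran from −0.023 to 0.65 over 10 pairs of groups, with a median of 0.35. CGR8 has 1 pair of groups (r 0.16). Whether the numbers pair samples is not settled in the time course or in CGR8. All 8 members are named. From the wider list the text names genes called in at least 1 comparison, with or without the block, and the 3 with the largest change in SYAT exons at 6 h; genes most like a member are the 3 with the highest r for the member with the largest change over its error.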

Additional observations from a re-analysis of the deposited data

How the results depend on the processing

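Duplicates and low counts limit these results: Cyp26a1, Dhrs3 and Rarb hold at most 84 exon counts per library outside CGR8. Without the filter on low counts edgeR called 1 member at 4 h, 3 at 6 h (Cyp26a1, Dhrs3 and Rarg) and 2 at 8 h (Cyp26a1 and Dhrs3) in SYAT. With the replicate block it called 2 at 6 h (Cyp26a1, adjusted p = 0.020, and Rarg, adjusted p = 0.035). Whether the numbers pair the samples is not settled in that table. EdgeR with the block also called 1 in wtSRCAP (Rarg, adjusted p = 0.016). The block changed no other call of a member in exon columns by adjusted p. By the looser rule for sorted cells it gave 2 members, against 0, between LG1 and EG1 after IAA. Leaving out 1 library, the number called ranged from 0 to 3 at 6 h in SYAT (without IAA replicate 1, where 15.4% of all genes were called) and from 0 to 1 in CGR8 (without control replicate 2, with 10.9%). In intron columns 3 members were called between LG1 and EG1 in controls (5 with the block) and 4 after IAA, where 59% and 64.4% of genes were called and where the columns of the 2 phases differ in the share of exon counts they hold. Over all genes, 13 were called at 6 h, against 823 with the block and 885 without the filter; at 4 h 0, 76 and 88; at 8 h 1, 634 and 448; in CGR8 2, 500 and 386; in wtSRCAP 1, 612 and 20; and in cdSRCAP 0, 345 and 10. Intron columns turned the direction of Crabp1 in CGR8 (0.11), Rarb in wtSRCAP (0.70) and Rara in cdSRCAP (−0.13); the cause was not tested. Leaving out 1 library, Dhrs3 at 2 h ranged from −0.54 to 0.74, Cyp26a1 in LG1 from −0.67 to 0.26, and the difference of the Cyp26a1 responses in cdSRCAP and wtSRCAP from −2.56 to 0.50. Of 111 member values, DESeq2 turned the sign of 1, its size factors 1, no filter 2 and the block 2. Fitting only the groups compared turned 3 of 85, intron columns 25 of 90, and leaving out 1 library 77 of 504. Where a table holds only the groups compared, or for a difference of responses, the fit on only those groups was not run.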
